A study of Mus musculus with 45 samples.

Results

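Skeletal muscle of 129S6/SvEvTac mice (129S6 below) on a high-fat diet was compared with that of 129S6 mice on a low-fat diet. The comparison used 8 of the 45 arrays in the series, 4 for each diet, chosen by the tissue, strain and diet that the labels give. The RNA on an array (25 µg at the start of labelling) came from several mice, 2 or 3 for each pool, and the spread between arrays is a spread between pools. The mice of all groups were 6 months old. The study's design text describes 1 diet, in which fat gave 21% of the calories, carbohydrates 57% and protein 22%, without tying it to either label. The sources used here give neither the make-up of the other diet, nor the time on it, nor which muscle was taken. Beside the 129S6 muscle stand muscle of C57Bl/6 (B6) mice on the low-fat diet (3 arrays) and the high-fat diet (4 arrays), 129S6 liver (4 and 4 arrays) and 129S6 epididymal fat (3 and 3 arrays). Values are log2 RMA levels of Affymetrix probe sets for 8251 genes, and a difference is high-fat minus low-fat on that log2 scale, so that 1 stands for 2-fold. The low-fat pools carry the replicate numbers 9, 10, 11 and 12 in the labels and the high-fat pools 1, 2, 3 and 4, and values are given in that order.

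Skeletal muscle burns both glucose and fatty acids. When more fatty acid reaches the fibre, nuclear receptors of the PPAR family can switch on genes of fatty acid uptake and oxidation and the kinase Pdk4, which closes pyruvate dehydrogenase to glucose carbon. Glucose enters through the transporter Slc2a4 (GLUT4), is phosphorylated by Hk2, and is stored as glycogen or passed through glycolysis. Mice of the strain family to which 129S6 belongs are known to carry brown adipocytes between the fibres of their muscle, cells that express the uncoupling protein Ucp1, while B6 mice carry few. A muscle sample can therefore hold RNA of fibres, white and brown adipocytes, blood, vessels, nerve and immune cells.

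Low-fat replicate 9 stood apart from the other 7 arrays. Its SD over probe sets was 1.574, against 1.825 to 1.861 in the other low-fat arrays and 1.799 to 1.843 in the high-fat arrays. Its mean level over 19 measured skeletal muscle identity genes (contractile proteins, Ckm, Mb and the like) was 8.723, against 10.54 to 10.57 in the other low-fat arrays and 10.24 to 10.48 in the high-fat arrays. The skeletal actin Acta1 measured 11.97, 13.96, 13.82 and 13.91 in the low-fat arrays and 13.91, 13.90, 13.81 and 13.84 in the high-fat arrays. The haemoglobin gene Hba-a1 measured 8.07, 12.95, 12.80 and 12.49 on low fat and 12.15, 12.18, 12.34 and 12.33 on high fat. Muscle genes and a blood gene were thus low together in replicate 9 and lay closer together in the other 7 arrays. By Dixon's criterion within its group of 4, replicate 9 lay far from the other low-fat arrays at 1150 genes (13.9%), low at 631 and high at 519. For the other low-fat arrays this number was 31 to 75, and for the high-fat arrays it was 56 to 274, the most in replicate 1. High-fat replicate 1 also had the widest gap between the 3' and 5' Gapdh control probe sets, at 4.435, against 1.270 to 2.031 in the other high-fat arrays and 0.291 to 2.558 in the low-fat arrays. For 13 array measures an exact two-sided permutation test over the 70 splits of 4 and 4 arrays gave adjusted p-values of 0.882 or more. The smallest p possible is 0.0286 before adjustment, so a single measure that separated the diets could not have passed, and the test does not show that the measures were alike. The sample names also carry a numbered code in brackets, which runs lower for all low-fat than for all high-fat 129S6 muscle arrays. The labels do not say what this code stands for. If it follows an order of processing, that order and diet cannot be told apart. The counts of calls, the gene groups and most single genes are therefore given with all 8 arrays and without low-fat replicate 9.

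**Figure D1:**
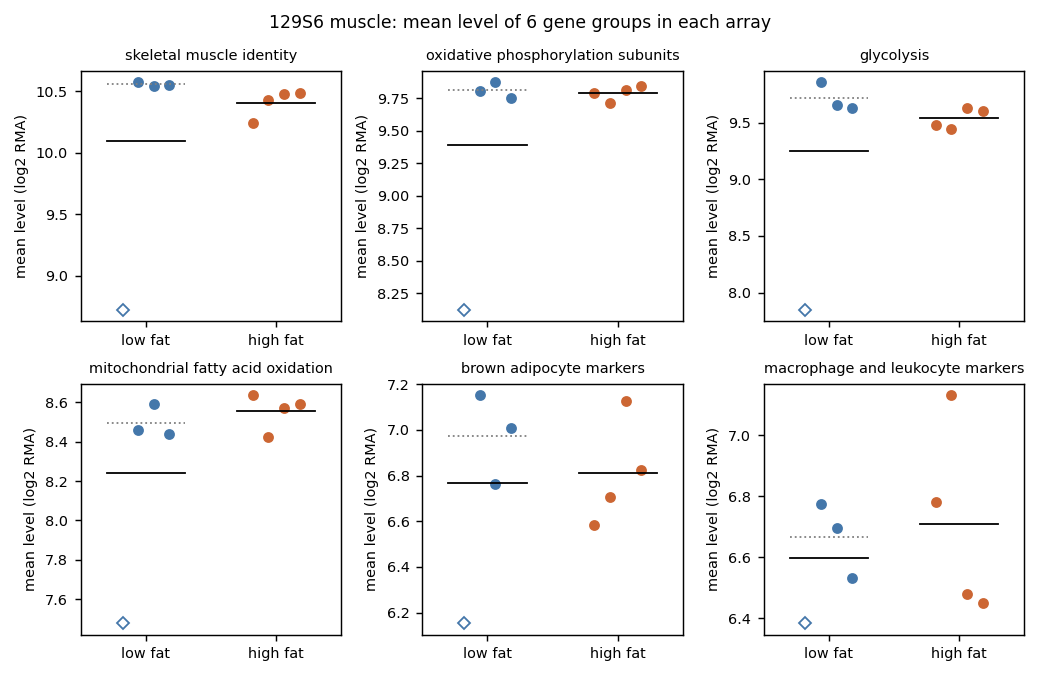
Mean log2 RMA level over the measured members of 6 gene groups in each 129S6 muscle array (blue, low fat, with replicate 9 as an open diamond; orange, high fat; black bar, group mean; dotted bar, low-fat mean without replicate 9). Replicate 9 is lowest in every panel, at 8.723 for skeletal muscle identity, while the other 7 arrays lie between 10.24 and 10.57 there.

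No gene passed an adjusted p of 0.05 between the diets in 129S6 muscle, of 8251 tested (0.0%). The smallest adjusted p was 0.992, and 65 genes were higher and 86 lower on high fat at an unadjusted limma p under 0.05. Without low-fat replicate 9 no gene passed either (0.0%, smallest adjusted p 0.999), with 43 higher and 181 lower at an unadjusted p under 0.05. The 4 low-fat and 4 high-fat arrays did not overlap at 157 genes (1.90% of those tested), of which 59 were higher and 98 lower on high fat. For a gene unrelated to diet the groups separate fully in a share of 0.0286 of the 70 splits. The observed 1.90% was not above that share. With 3 low-fat arrays the groups did not overlap at 488 genes (5.91%), of which 168 were higher and 320 lower. Full separation by chance is more common with fewer arrays, so neither count by itself is a result about diet. The median difference over all genes was -0.01 with all arrays and 0.01 without replicate 9, and differences were not recentred. RMA equalises array distributions, so a small median is favoured by the processing and says nothing about diet. The unadjusted 95% interval lay within 2-fold in both directions for 7460 genes (90.4%), and without replicate 9 for 7913 genes (95.9%). The median standard error of a difference was 0.16, and 0.147 without replicate 9. For the genes below, then, no difference passed the test across all genes, and the values are a description.

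The genes with the smallest p among those higher on high fat were led by Mest, an imprinted gene whose expression in adipose tissue is known to follow fat expansion. Mest measured 4.05, 4.26, 4.27 and 4.29 on low fat and 5.53, 4.66, 5.25 and 5.53 on high fat. These values lay below the medians of the 129S6 muscle arrays (6.133 to 6.195), and whether they lie above background was not tested. For Mest every high-fat array was above every low-fat array, by a mean of 1.02 ± 0.225 (standard error; 2.03-fold, adjusted p = 0.992). Without replicate 9 the difference was 0.97 ± 0.241, and in 129S6 epididymal fat it was 1.75 ± 0.44 (adjusted p = 0.101). Ccdc50, an adaptor protein of epidermal growth factor receptor signalling, measured 7.01, 7.66, 8.20 and 7.84 on low fat and 8.83, 8.51, 8.49 and 8.81 on high fat. Its groups did not overlap either, and the difference was 0.98 ± 0.235 with all arrays and 0.76 ± 0.201 without replicate 9.

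Several of the other genes of this set are known to be expressed by adipocytes. Probe sets whose names carry the letter f, r or s, such as those kept for Sncg, Scd2, Gpd2, Myh7, Tnnt1, Nnat and Ckm, can be less specific to 1 gene. Sncg, gamma-synuclein, differed by 0.51 ± 0.150, and its second probe set by 0.59. Rarres2, which encodes the adipokine chemerin, differed by 0.65 ± 0.193, with the high-fat arrays at 8.42 to 8.88 and the low-fat arrays at 7.47 to 8.54, so that the groups overlapped. Scd2, a stearoyl-CoA desaturase, differed by 0.49 ± 0.150 and did not overlap, and a second Scd2 probe set differed by 0.79 ± 0.217. Pltp, the phospholipid transfer protein of lipoproteins, differed by 0.85 ± 0.257, where high-fat replicate 2 was the highest array at 8.95. Ccdc80, a secreted protein of adipocytes and matrix, differed by 0.51 ± 0.173, and Mrpl42, a protein of the mitochondrial ribosome, by 0.47 ± 0.170. All 8 kept a positive difference without replicate 9, from 0.42 for Ccdc80 to 0.97 for Mest, in arrays that were also used to choose them.

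Among genes lower on high fat, Kcna5, a voltage-gated potassium channel, measured 5.17, 4.96, 4.96 and 4.86 on low fat and 4.45, 4.58, 4.68 and 4.63 on high fat. Its groups did not overlap, with a difference of -0.40 ± 0.095 (adjusted p = 0.992) and of -0.34 ± 0.092 without replicate 9. Adh1, an alcohol and retinol dehydrogenase, measured 8.32, 8.12, 7.92 and 7.98 on low fat and 7.61, 7.58, 7.71 and 7.75 on high fat. It did not overlap either, with a difference of -0.42 ± 0.103, and of -0.34 ± 0.096 without replicate 9. Gpd2, the mitochondrial glycerol-3-phosphate dehydrogenase of the shuttle that carries cytosolic electrons to the respiratory chain, measured 8.20, 7.83, 7.05 and 7.06 on low fat and 6.95, 6.41, 7.04 and 6.68 on high fat. The gap between its groups was narrow, and the difference was -0.76 ± 0.234 (0.589-fold) with all arrays and -0.54 ± 0.201 without replicate 9.

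The 5 others were Tmed9, a cargo receptor between endoplasmic reticulum and Golgi (-0.47 ± 0.137), Eef1d, a translation elongation factor (-0.60 ± 0.176), Acvr2b, a receptor of myostatin and activins (-0.33 ± 0.101), Akap9, an anchoring protein of kinases at the Golgi and centrosome (-0.50 ± 0.161), and Tbx15, a transcription factor of fast glycolytic fibres (-0.49 ± 0.163). The groups overlapped for Tbx15, and another probe set of Tbx15 gave a difference of 0.31 ± 0.266. Without replicate 9 all 8 kept a negative difference, from -0.54 for Gpd2 to -0.26 for Acvr2b, again in arrays used to choose them.

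**Figure D2:**
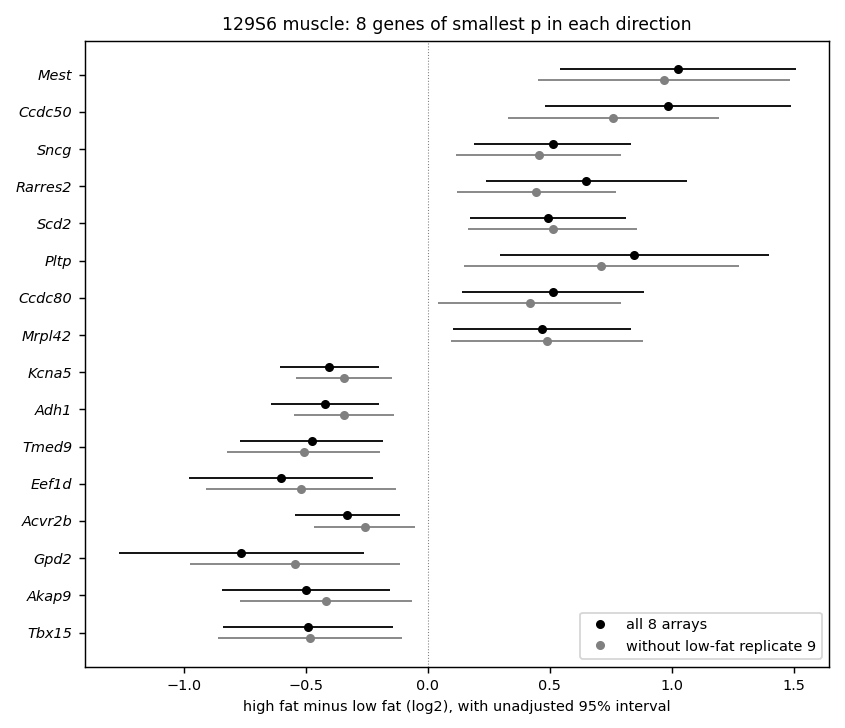
High-fat minus low-fat difference (log2, x axis) with its unadjusted 95% interval for the 8 genes of smallest p in each direction in 129S6 muscle, from all 8 arrays (black) and without low-fat replicate 9 (grey). Mest has the largest positive difference, 1.02, and Gpd2 the largest negative one, -0.76, and none of the 16 passed the adjusted threshold.

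Genes of fatty acid uptake and oxidation and targets of PPAR receptors were described first by group. No member passed the test among 20 measured genes of mitochondrial fatty acid oxidation, 14 of fatty acid uptake and lipoprotein lipolysis, and 11 PPAR targets of muscle. Their median differences with all arrays were 0.32, 0.05 and 0.45, beside -0.01 over all genes, and without replicate 9 they were 0.04, 0.05 and 0.11. The larger medians with all arrays went with the low level of these genes in replicate 9, where the mean over the oxidation genes was 7.477, against 8.439 to 8.591 in the other low-fat arrays and 8.423 to 8.636 in the high-fat arrays.

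Pdk4 measured 9.98, 10.37, 11.18 and 10.54 on low fat and 11.21, 11.14, 11.02 and 11.15 on high fat. The 4 high-fat arrays lay within a narrow band, and low-fat replicate 11 reached it while the other low-fat arrays were lower. The difference was 0.61 ± 0.260 (1.53-fold) with all arrays and 0.43 ± 0.251 without replicate 9. Fabp3, the fatty acid binding protein of muscle and heart, measured 7.48, 9.53, 9.97 and 9.25 on low fat and 10.04, 9.77, 10.00 and 10.25 on high fat. Here too low-fat replicate 11 was inside the high-fat range, and the difference was 0.96 ± 0.409 with all arrays and 0.43 ± 0.245 without replicate 9. Ucp3, the uncoupling protein of muscle, measured 7.32, 8.58, 8.94 and 8.63 on low fat and 7.91, 8.58, 8.90 and 8.94 on high fat. Its groups overlapped throughout, with a difference of 0.22 ± 0.310 that became -0.13 ± 0.230 without replicate 9.

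The acyl-CoA dehydrogenases Acadl and Acadm, which start the oxidation of long and medium chains, differed by 0.57 ± 0.436 and 0.35 ± 0.211, and by 0.53 and 0.12 without replicate 9. Cd36, the fatty acid translocase, measured 6.73 to 7.30 on low fat and 7.07 to 7.40 on high fat, a difference of 0.17 ± 0.211, and of 0.27 ± 0.219 without replicate 9. Lpl, the lipase that frees fatty acids from lipoproteins at the vessel wall, had a mean of 9.59 on both diets, and its 95% interval ran from -0.38 to 0.37. A second Lpl probe set gave -0.73 ± 0.389. Angptl4, a PPAR target that inhibits this lipase, differed by 0.23 ± 0.162, and its other probe sets by -0.03 and -0.34. For the receptors and their coactivator the interval was -0.41 to 0.14 for Ppara, -0.29 to 0.29 for Ppard and -0.31 to 0.26 for Ppargc1a, each within 2-fold.

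Genes of fatty acid synthesis had no common sign. Of 12 measured, 7 had a positive and 5 a negative difference, with a median of 0.01 (-0.13 without replicate 9), and none passed the test. Scd1 and Scd2 had positive differences. Scd1, which makes monounsaturated fatty acids, measured 9.76, 11.56, 10.95 and 11.10 on low fat and 12.41, 11.73, 11.90 and 11.66 on high fat. The groups did not overlap, and the difference was 1.08 ± 0.416 (2.11-fold, adjusted p = 0.992) with all arrays and 0.72 ± 0.373 without replicate 9. Other probe sets of Scd1 gave 1.20 ± 0.680 and 0.07 ± 0.286. Scd2 measured 7.64, 7.41, 7.53 and 7.77 on low fat and 8.51, 7.94, 7.98 and 7.89 on high fat, and its difference was 0.51 ± 0.161 without replicate 9, close to the value with all arrays.

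Fasn, Thrsp and Acly had negative differences. Fasn, fatty acid synthase, measured 8.19, 10.48, 9.21 and 10.45 on low fat and 8.68, 8.77, 9.72 and 9.45 on high fat. Thrsp (Spot 14), a regulator of lipogenesis, measured 8.33, 10.24, 9.01 and 10.03 on low fat and 8.45, 8.03, 9.02 and 8.48 on high fat. Acly, which makes cytosolic acetyl-CoA, measured 8.08, 9.50, 7.95 and 9.33 on low fat and 8.00, 7.36, 8.15 and 7.89 on high fat. In all 3 genes low-fat replicates 10 and 12 were the highest arrays, while replicates 9 and 11 lay among the high-fat arrays or beneath them. The difference of Fasn was -0.43 ± 0.444, and -0.89 ± 0.354 without replicate 9. For Thrsp it was -0.90 ± 0.351, and -1.26 ± 0.287 without replicate 9 (adjusted p = 0.999), the smallest p of the 8251 genes in that setting. For Acly it was -0.87 ± 0.541, and -1.08 ± 0.569. Tkt, transketolase of the pentose phosphate pathway, which yields NADPH with its partner enzymes, was singled out after its values were seen. It measured 6.95, 9.70, 8.10 and 9.07 on low fat and 7.37, 7.44, 7.92 and 7.60 on high fat, with a difference of -0.87 ± 0.453, and of -1.38 ± 0.342 without replicate 9, where its groups did not overlap. Srebf1, the transcription factor of lipogenic genes, differed by 0.02 ± 0.183, and the elongases Elovl5 and Elovl6 by 0.00 ± 0.232 and -0.25 ± 0.150.

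Of 16 measured cholesterol synthesis genes none passed the test, and their median was -0.08, or -0.03 without replicate 9. Hmgcs1, which makes HMG-CoA for sterol synthesis, measured 6.26, 6.31, 6.84 and 6.57 on low fat and 7.75, 6.98, 7.13 and 7.20 on high fat. Idi1, the isopentenyl diphosphate isomerase of the same pathway, measured 6.36, 6.26, 6.21 and 6.16 on low fat and 6.98, 6.43, 6.71 and 6.63 on high fat. Both sets of arrays stood apart, at 0.77 ± 0.348 for Hmgcs1 and 0.44 ± 0.167 for Idi1, and both were chosen here after their values were seen. Their differences without replicate 9 were 0.69 and 0.48. Insig1, a sterol sensor of that pathway, gave -0.01 ± 0.125, with an interval from -0.27 to 0.26.

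**Figure D3:**
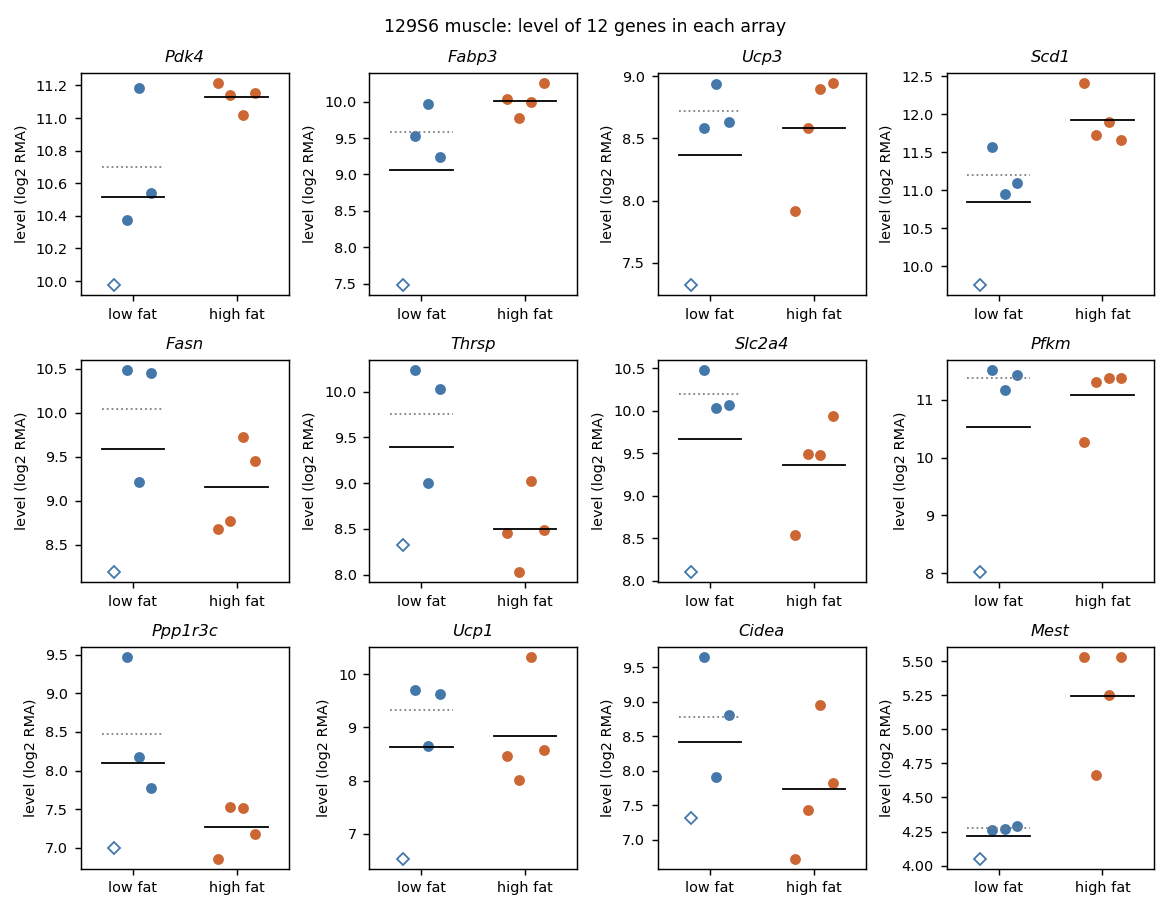
Log2 RMA level of 12 genes in each 129S6 muscle array (blue, low fat, with replicate 9 as an open diamond; orange, high fat; black bar, group mean; dotted bar, low-fat mean without replicate 9). The diets do not overlap for Scd1 and Mest, while in Fasn, Thrsp and Cidea low-fat replicates 10 and 12 are high and in Fabp3, Slc2a4 and Pfkm low-fat replicate 9 is the lowest array.

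Glucose entry and its storage gave values whose sign or size rested on replicate 9. Slc2a4, the insulin-regulated glucose transporter, measured 8.10, 10.48, 10.03 and 10.07 on low fat and 8.54, 9.49, 9.48 and 9.94 on high fat. With all arrays the groups overlapped and the difference was -0.31 ± 0.408. Without replicate 9 every high-fat array was below every low-fat array, by a narrow gap at the closest pair, and the difference was -0.83 ± 0.246 (0.562-fold, adjusted p = 0.999). High-fat replicate 1, the array with the widest Gapdh gap, was the lowest of the high-fat arrays. In 129S6 epididymal fat the Slc2a4 difference was -1.67 ± 0.37 (adjusted p = 0.0632). Ppp1r3c, the subunit that brings protein phosphatase 1 to glycogen, was singled out after its values were seen. It measured 7.00, 9.47, 8.18 and 7.77 on low fat and 6.86, 7.53, 7.52 and 7.18 on high fat, a difference of -0.83 ± 0.379, and of -1.20 ± 0.319 without replicate 9.

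Over 21 measured genes of insulin signalling and glucose entry the median was -0.07, and -0.01 without replicate 9, and no member passed the test. The insulin receptor gene Insr differed by 0.07 ± 0.143, with an interval from -0.24 to 0.38. Irs1, the insulin receptor substrate, differed by -0.29 ± 0.238, and by -0.01 ± 0.167 without replicate 9, an array at 5.43 when the other 7 lay at 4.13 to 4.47. Over 19 glycolysis genes the median was 0.27 with all arrays and -0.10 without replicate 9, and over 12 genes of glycogen metabolism 0.06 and -0.01. Hk2 differed by 0.27 ± 0.414 and by -0.24 ± 0.273 without replicate 9, and Gys1, the glycogen synthase of muscle, by 0.35 ± 0.462 and -0.25 ± 0.272. Pfkm, muscle phosphofructokinase, measured 8.02, 11.51, 11.17 and 11.43 on low fat and 10.27, 11.31, 11.37 and 11.38 on high fat. Pygm, glycogen phosphorylase of muscle, measured 9.50, 12.21, 12.04 and 12.19 on low fat and 11.20, 12.07, 11.79 and 11.75 on high fat. In both genes replicate 9 was far below the rest and high-fat replicate 1 was the next lowest array.

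The machinery of mitochondria and of contraction showed the same dependence. All 22 measured genes of the citric acid cycle list had a positive difference with all arrays, beside 3846 of all 8251 genes, and their median was 0.40. Of 70 oxidative phosphorylation subunits, 62 were positive, again with a median of 0.40, and none passed the test in either direction. Without replicate 9 those medians were 0.00 and 0.02. The mean level of the 70 subunits was 8.121, 9.803, 9.875 and 9.754 on low fat and 9.792, 9.714, 9.810 and 9.845 on high fat, so that replicate 9 alone was low and the other 7 arrays spanned less than 0.2. Citrate synthase, Cs, measured 7.98, 10.56, 10.98 and 10.93 on low fat and 10.92, 10.71, 10.87 and 10.76 on high fat. Its difference was 0.70 ± 0.581 with all arrays and -0.01 ± 0.383 without replicate 9.

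The fast and slow contractile genes, which mark the fibre types, followed suit. The median over 19 fast genes was 0.40 with all arrays and 0.00 without replicate 9, and over 14 slow genes it was 0.36 and 0.05. Myh4, the myosin heavy chain of fast IIb fibres, measured 11.73, 13.08, 13.12 and 13.03 on low fat and 13.30, 13.11, 13.00 and 12.96 on high fat, which left a difference of 0.02 ± 0.172 without replicate 9. Myh7, the slow myosin heavy chain, measured 8.70, 9.31, 10.43 and 9.43 on low fat and 10.16, 9.87, 9.01 and 10.08 on high fat. Tnnt1, slow troponin T, measured 8.63, 10.71, 11.31 and 10.44 on low fat and 11.28, 10.96, 10.11 and 11.08 on high fat. Both slow genes were highest in low-fat replicate 11 and high-fat replicate 1 and, replicate 9 apart, lowest in high-fat replicate 3, and neither separated the diets. Mb, myoglobin, measured 6.73, 10.21, 10.07 and 9.84 on low fat and 9.45, 9.55, 9.71 and 9.77 on high fat. Its difference changed from 0.41 ± 0.607 to -0.42 ± 0.307 without replicate 9, where the groups did not overlap. Mstn, myostatin, the inhibitor of muscle growth, differed by -0.08 ± 0.282. Over the 38 lists no member passed, 9 had a median above 0.2 with all arrays, and without replicate 9 none did, while the medians of the lipid droplet proteins (-0.22) and the erythrocyte markers (-0.45) were then below -0.2.

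**Figure D4:**
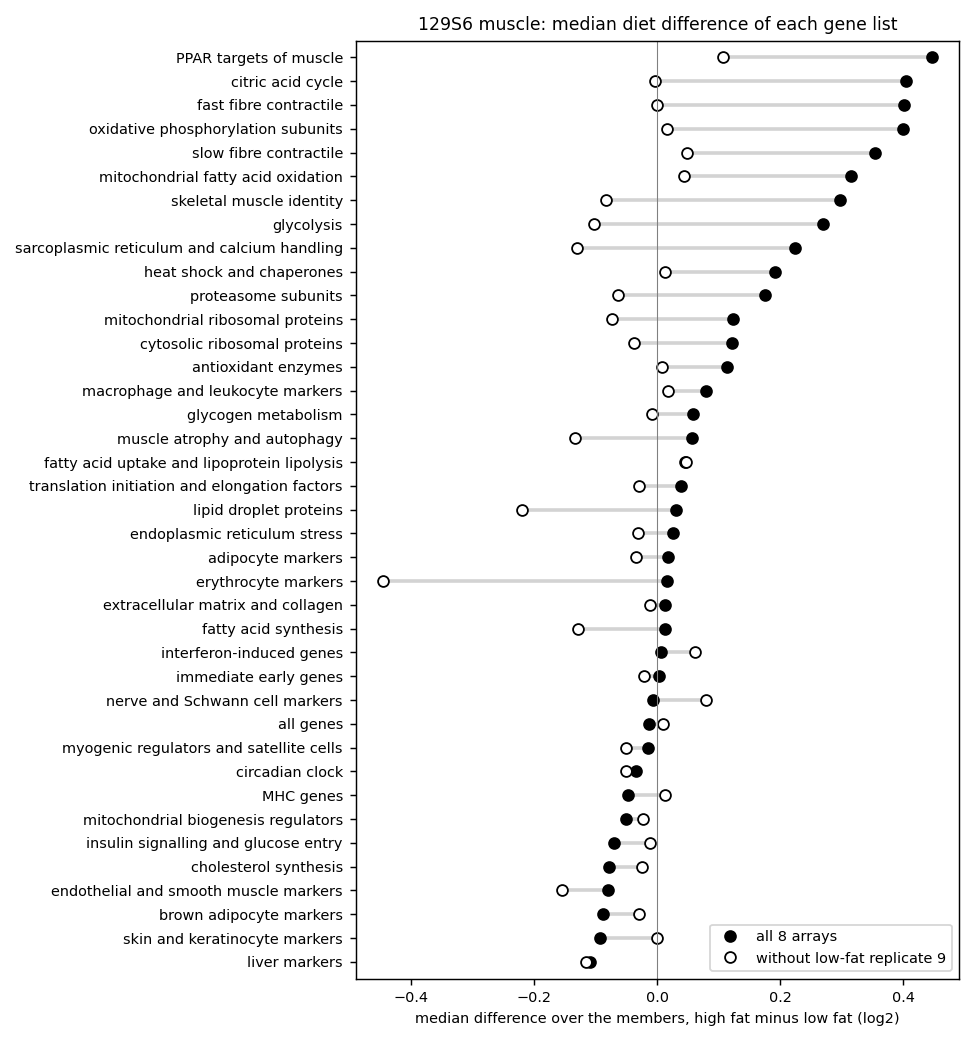
Median high-fat minus low-fat difference (log2, x axis) over the measured members of each of 38 gene lists and over all genes in 129S6 muscle, from all 8 arrays (filled) and without low-fat replicate 9 (open). The lists at the top, such as citric acid cycle (0.40) and oxidative phosphorylation subunits (0.40), lie at 0.00 and 0.02 without that array.

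Markers of brown adipocytes varied widely between the 129S6 muscle pools on either diet. Ucp1 measured 6.54, 9.70, 8.65 and 9.62 on low fat and 8.46, 8.02, 10.32 and 8.58 on high fat, beside means of 5.76 on low fat and 5.74 on high fat in B6 muscle, and the strain difference was not tested here. The 129S6 groups overlapped, with a difference of 0.22 ± 0.598 and of -0.48 ± 0.424 without replicate 9. A second Ucp1 probe set gave -0.60 ± 0.238. In bulk RNA fewer cells of a type and less RNA per cell cannot be told apart. Cidea, a lipid droplet protein of brown adipocytes, measured 7.32, 9.65, 7.90 and 8.81 on low fat and 6.72, 7.43, 8.95 and 7.82 on high fat. Within each diet the pool with the highest Ucp1 also had the highest Cidea, low-fat replicate 10 and high-fat replicate 3. Those pools were also the highest of their diet in Fasn (10.48 and 9.72) and Thrsp (10.24 and 9.02), and the part of brown adipocyte RNA in the values of the lipogenic genes was not tested. Cox8b, a cytochrome oxidase subunit of brown fat and muscle, differed by -0.03 ± 0.154 without replicate 9. Over 8 measured brown adipocyte markers the mean level ran from 6.153 to 7.151 on low fat and from 6.584 to 7.126 on high fat, and the median difference was -0.09, or -0.03 without replicate 9.

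The mean level of the adipocyte markers overlapped between the diets. Over 18 measured members, which include Ucp1, Cidea and Elovl3 of brown adipocytes and the lipogenic Scd1 and Thrsp, the mean level was 7.493, 8.384, 8.099 and 8.164 on low fat and 7.954, 7.808, 8.329 and 8.124 on high fat. Scd1 was the single member of the 18 whose groups did not overlap, beside 157 of all 8251 genes (1.90%), so this count is not a result about the markers. Adipoq, adiponectin, measured 9.53, 9.49, 10.00 and 9.56 on low fat and 9.93, 9.34, 9.82 and 9.70 on high fat, a difference of 0.06 ± 0.204, and of 0.02 ± 0.220 without replicate 9. Lep, leptin, measured 9.38, 9.24, 8.96 and 8.80 on low fat and 9.13, 8.93, 9.06 and 9.12 on high fat. Its difference was -0.04 ± 0.133 (0.06 ± 0.127 without replicate 9). A second Lep probe set, with a mean of 8.92 over the muscle arrays against 9.12, differed by 0.59 ± 0.131. Without replicate 9 it differed by 0.54. Its unadjusted limma p was 0.000443, and tested with all other probe sets it missed the threshold too (adjusted p = 0.991). Which of the 2 reads leptin in muscle was not tested. The 2 Lep probe sets thus disagreed, and in 129S6 epididymal fat Lep rose by 1.94 ± 0.20 (adjusted p = 0.000817). The brightest Lep probe set of 129S6 liver had means of 9.03 on low fat and 9.20 on high fat, close to the muscle levels. In fat the means were 11.22 and 13.16. Whether the muscle levels of Lep lie above background was not tested, so the small difference of the first probe set may not describe leptin.

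Immune genes varied by pool. High-fat replicate 2 was the highest array for a set of macrophage genes chosen after their values were seen. Adgre1, a surface receptor of macrophages, measured 7.25, 6.45, 6.73 and 6.47 on low fat and 6.73, 9.43, 6.98 and 6.66 on high fat. Ctss, the lysosomal protease cathepsin S, measured 6.72, 6.28, 6.47 and 6.48 on low fat and 7.73, 8.60, 6.16 and 6.38 on high fat. Cd52 and Tyrobp, of leukocytes, measured 9.16 and 8.35 in that pool, against highs of 7.30 and 6.99 among the other 7 arrays. The mean over 33 macrophage and leukocyte markers was 7.131 in that pool and 6.384 to 6.781 in the others, and the median difference over the list was 0.08, or 0.02 without replicate 9. The neutrophil gene S100a8 was high in other pools, at 9.53 and 8.92 in low-fat replicates 10 and 11 and 8.91 in high-fat replicate 1, against 6.34 to 7.36 in the rest.

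Blood, matrix and stress genes were described by group. Over 6 measured erythrocyte markers the median difference was 0.02 with all arrays and -0.45 without replicate 9. Hba-a1 then differed by -0.50 ± 0.386 and Hbb-b2, a beta-globin gene, by -0.96 ± 0.323, and both had every high-fat array below every remaining low-fat array. Over 44 extracellular matrix genes the medians were 0.01 and -0.01, over 27 interferon-induced genes 0.01 and 0.06, over 18 circadian clock genes -0.04 and -0.05, and over 27 heat shock and chaperone genes 0.19 and 0.01. Mt2, a metallothionein induced by glucocorticoids and metals, ranged from 8.03 to 9.81 on low fat and from 8.11 to 10.73 on high fat, highest in low-fat replicate 12 and high-fat replicate 1. Nr1d1 and Dbp, which cycle over the day, differed by 0.23 ± 0.394 and 0.02 ± 0.201.

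The diet difference of 129S6 muscle was tested against that of B6 muscle in the same fit. In B6 muscle 2214 of 8251 genes passed the test between diets (26.8%). Of these 2214, 656 had the same sign in 129S6 muscle with all arrays (29.6%) and 1627 without low-fat replicate 9 (73.5%), while over all genes the share was 34.0% and 61.8%. The diet difference itself differed between the strains at 263 genes (3.19%), lower in B6 than in 129S6 at 209 and higher at 54, and at 810 genes (9.82%) without low-fat replicate 9, which included all 263. The SD over probe sets was 1.592 to 1.704 in the B6 high-fat arrays and 1.814 to 1.881 in the B6 low-fat arrays, so that in B6 a narrow spread went with the high-fat diet, whereas in 129S6 it marked 1 low-fat array. With the array SD as a covariate 4 genes passed (Cyb5b, Etfb, Psmd11 and Rhob), and without any 1 of the high-fat 129S6 arrays 2 or 3 passed. Without low-fat replicate 10 the number was 646 and without replicate 11 it was 760.

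The largest negative strain differences were in Rps18, a ribosomal protein gene (-4.69, adjusted p = 0.04), Pkm, pyruvate kinase (-4.62), Pgam2, the phosphoglycerate mutase of muscle (-4.54), Elob, elongin B (-4.31), Gsn, the actin-severing gelsolin (-4.21), and Ndufb6, a subunit of respiratory complex I (-4.19, adjusted p = 0.0275). Ndufb6 measured 8.27, 11.25, 11.19 and 10.90 on low fat and 11.00, 10.94, 11.03 and 11.13 on high fat in 129S6 muscle, beside means of 11.25 and 7.68 in B6. In these 6 genes replicate 9 was 2.62 to 4.52 below the next lowest low-fat array, and without it the differences were -3.71, -3.47, -3.75, -3.49, -3.26 and -3.48. Replicate 9 was the lowest low-fat array at 205 of the 209 genes, beside 3014 of all 8251 genes. At these 209 genes the median diet difference was -1.73 in B6 and 0.30 in 129S6, or -0.07 without replicate 9. The 209 genes were chosen by a contrast that holds the B6 difference and replicate 9, so this count and these medians are a description.

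The largest positive ones were in Kcnma1, the large-conductance calcium-activated potassium channel (1.91, adjusted p = 0.0419), Gja1, the gap junction protein connexin 43 (1.70), Mitf, a transcription factor of melanocytes and other lineages (1.498), S1pr1, a receptor of sphingosine 1-phosphate (1.45), Klhl7, a substrate adaptor of a ubiquitin ligase (1.32), and Snrpb2, a protein of the U2 spliceosome particle (1.27). Without replicate 9 these were 1.496, 1.37, 1.37, 1.18, 1.38 and 1.01, in the same order. Replicate 9 was the highest low-fat array at 46 of the 54 genes, beside 3796 of all 8251 genes. At these 54 genes the median diet difference was 0.71 in B6 and -0.18 in 129S6, or -0.06 without replicate 9. These 54 genes too were chosen by that contrast, so their count and medians are a description. Klhl7 was not among the 46, at 5.83, 5.91, 6.29 and 5.92 on low fat and 5.82, 5.56, 5.92 and 5.84 on high fat in 129S6, beside B6 means of 5.27 and 6.39. The smallest adjusted p was that of Kcna5, 0.0074, with a diet difference of -0.40 in 129S6 and 0.71 ± 0.102 in B6 muscle, where it passed the test (adjusted p = 0.00273). Of the other 15 leading genes of 129S6 muscle, Adh1, Tbx15, Rarres2 and Pltp passed, which were chosen for a difference that is a part of this contrast, so that their strain differences are a description. Rarres2 (-1.55) and Pltp (-1.66) fell in B6 muscle, by 0.91 and 0.82, whereas in 129S6 they were higher on high fat, by 0.65 and 0.85. The array SD did not overlap between the B6 diets, so with it as a covariate array spread and diet in B6 cannot be told apart. The part of the array spread in these strain differences was not tested.

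**Figure D5:**
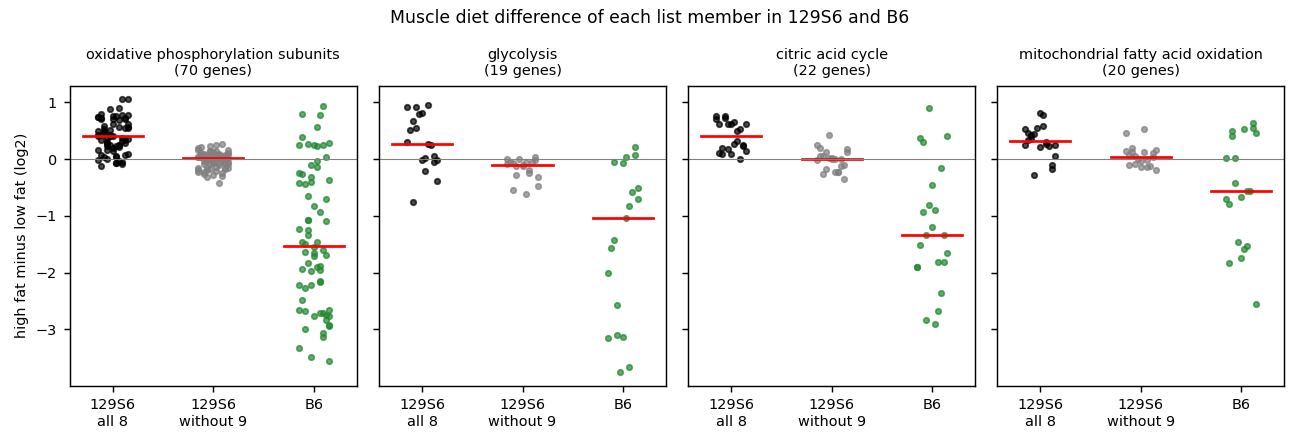
High-fat minus low-fat difference (log2, y axis) of each measured member of 4 gene lists in 129S6 muscle from all 8 arrays, in 129S6 muscle without low-fat replicate 9, and in B6 muscle (points, genes; red bar, median). The oxidative phosphorylation medians are 0.40, 0.02 and -1.52, and the B6 high-fat arrays have an SD over probe sets of 1.592 to 1.704.

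In the 129S6 liver and epididymal fat of the series 19 genes (0.230%) and 62 genes (0.751%) passed the test between diets. The probe set kept for a gene can differ between tissues, so in this comparison only differences are set side by side. Of the 62 genes that passed in fat, 45 had the same sign in 129S6 muscle (72.6%), and 43 without replicate 9 (69.4%), while over all genes the share was 59.9% and 66.1%. Of those 62, 8 had an unadjusted p under 0.05 in muscle (12.9%), all with the sign they had in fat, beside 151 of all 8251 genes (1.83%), and this share was not tested. Nnat, an imprinted gene of adipose tissue and brain, was among them, at 5.78, 6.87, 6.46 and 5.75 on low fat and 5.46, 5.59, 5.71 and 5.58 on high fat. Its groups did not overlap, with a difference of -0.63 ± 0.243 in muscle, beside a fall of -3.76 ± 0.56 in fat (adjusted p = 0.00831). Scd2 was another, with 0.49 in muscle and a rise of 1.92 ± 0.20 in fat (adjusted p = 0.000817). The others were Aldh1a7, Atf3, Ptger3, Ptgfr and Tuba1a, positive in both, and Hsd11b1, which activates glucocorticoids, negative in both (-0.28 in muscle, -1.83 in fat). Of the 19 genes that passed in liver, 10 had the same sign in muscle (52.6%), and 7 without replicate 9 (36.8%), while over all genes the share was 41.9% and 39.6%. Of those 19, 2, Scd1 and Pltp, had an unadjusted p under 0.05 there, positive in both tissues (Scd1 1.20 and Pltp 0.89 in liver). The mean level of the adipocyte markers in the muscle arrays, given above, overlapped between the diets, and the part of adipocyte RNA in these values was not tested.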

How the data were processed

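Skeletal muscle of 129S6 mice was measured on 8 one-colour Affymetrix arrays within a table of 45. The deposited values are log2 levels that the authors made with RMA, per the labels, which subtracts background, equalises array distributions and summarises each probe set; no source used here states its version. Precision is limited by how many arrays there are. Of 12488 probe sets, 10833 carried 1 gene symbol, 396 several, 1193 none and 66 were controls; 10817 matched the reference table by Entrez ID. Each of 8251 genes was represented by its brightest probe set in the tissue (highest mean).

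The 15 muscle arrays were fitted together with limma 3.58.1 in R 4.3.3, with 1 mean for each of 4 groups and no covariate; the contrasts were diet in 129S6, diet in B6, and their difference. Liver and fat were fitted likewise. Tests were two-sided with Benjamini-Hochberg adjustment over all genes and a threshold of 0.05. Array measures were compared by exact permutation tests. Labels do not say whether pools of a group shared mice or cages. The scripts were tested on simulated data. Figures used matplotlib 3.10.9 in Python 3.11.15.

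The named genes were, since none passed the threshold, the 8 of smallest p in each direction, 39 measured genes of a short list of 47 (the text omits some), the 6 largest strain differences each way past the threshold, and other probe sets with a mean above 4.5. Genes outside this rule are said to be chosen after their values were seen, as were Mb, Cidea, Cox8b, Hba-a1, Hbb-b2, Acta1, Thrsp, Acly, Nnat, Insig1 and the immune genes. The members and lists were chosen with earlier results of these data known. Alternatives changed the probe sets, scaling, fit, covariates, weights and arrays.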

Additional observations from a re-analysis of the deposited data

Results flagged for a closer look

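In several groups of 4 arrays 1 array lay far from the other 3, by a gap that Dixon's criterion allows in about 1 of 20 groups by chance. Among 36 genes of the text, tested in both diets (72 groups), 13 groups had such an array, and in 9 it was low-fat replicate 9, low each time. These were Mest (4.052), Pfkm (8.024), Pygm (9.496), Mb (6.732), Myh4 (11.732), Acta1 (11.966), Ckm (9.867), Cox8b (9.185) and Hba-a1 (8.071). Several of the 36 genes, among them Mb, Acta1, Cox8b and Hba-a1, were chosen after their values were seen. These counts are therefore a description and cannot be held against the chance rate. Over all 8251 genes replicate 9 lay far low at 631 and far high at 519. The same array was far below the others in its SD over probe sets (1.574) and in the mean level of skeletal muscle identity genes (8.723), oxidative phosphorylation subunits (8.121) and glycolysis genes (7.847). Mest is the gene of this set whose low value in replicate 9 differed least from the others, which were at 4.26 to 4.29.

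High-fat replicate 1 lay far from its group in Scd2, where it was high at 8.507, and in Pfkm, where it was low at 10.274. High-fat replicate 2 was far above its group in Adgre1, at 9.430, and low-fat replicate 11 in Adipoq, at 9.995.

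The diet difference differed between B6 and 129S6 muscle past the threshold, with B6 minus 129S6 negative, in Rps18 (-4.686), Pkm (-4.615), Pgam2 (-4.541), Elob (-4.313), Gsn (-4.208) and Ndufb6 (-4.192). It was positive in Kcnma1 (1.908), Gja1 (1.699), Mitf (1.498), S1pr1 (1.450), Klhl7 (1.323) and Snrpb2 (1.267). The B6 high-fat arrays and low-fat 129S6 replicate 9 had the narrow SD over probe sets given in the report, and with that SD as a covariate none of these 12 passed. The SD did not overlap between the B6 diets, so that fit cannot tell array spread from diet in B6.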

How the results depend on the processing

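No gene passed between the diets in 129S6 muscle under any of 23 alternatives, 5 of them chosen after seeing the data, among them those without any 1 array. The smallest adjusted p was 0.124, for Mest with the array SD as a covariate and without low-fat replicate 9. All 16 leading genes kept their sign in each alternative that measured them. They were chosen for the smallest p with all arrays, and the alternatives reuse most of the same values. A kept sign was therefore largely built in and is no support for these genes. Without replicate 9 the tests of quantile normalization, the 2 diet groups alone and high-fat replicate 1 also left out gave 0 calls as well. The count of strain differences was not stable: 263 with all arrays, 4 with the array SD as a covariate (38 without replicate 9), 1342 with the Gapdh gap as a covariate and 1700 with array weights. Leaving out single arrays gave 2 to 810, and without low-fat replicate 9 quantile normalization gave 801 and the further loss of high-fat replicate 1 gave 703. In B6 muscle the 2214 calls became 61 with the array SD as a covariate and 1742 to 3564 without single 129S6 arrays. That covariate did not overlap between the B6 diets and cannot be told apart from diet there. All 12 named strain differences, chosen as the largest in the same arrays, kept their sign, and each missed the threshold under some alternative. The causes were not tested. No paired analysis was possible because the low-fat pools carry the numbers 9 to 12 and the high-fat pools 1 to 4, so that the diets share no replicate number. With 4 pools a group the median standard error of a difference was 0.16, which limits what small differences can be seen, and the deposited levels carry no call of presence over background.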
